A study of Mus musculus with 14 samples.

Results

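Integrins are the receptors with which a cell holds its matrix, and focal adhesion proteins tie them to actin. This account follows 36 genes of that system, 17 integrin chains, the integrin-like gene Itgbl1 and 18 cytoplasmic proteins of focal adhesions, out of 24346 genes with deposited counts. The members were a list of gene symbols, and all 36 had a row in the count table and in the RPKM table. The cells were MC3T3-E1, a mouse line of bone-forming precursor cells that deposits and mineralises collagen matrix in culture. The labels divide the 14 libraries into control and MACF1 knockdown cells (MACF1 is a large protein that crosslinks microtubules and actin), each sampled at days 0, 3, 5 and 10. Days 0, 3 and 5 had 2 biological replicates per condition by the series' design text, and day 10 had 1 library per condition. All groups share the 1 cell line and carry no other labelled allele or agent; the sample titles carry the tags NC (control) and sh (knockdown), which they do not spell out, and the sources used here give no construct and no culture medium.

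An integrin is a pair of 1 alpha and 1 beta chain, and the pair decides the ligand. With the beta1 chain, the alpha1, alpha2, alpha10 and alpha11 chains bind collagens, the alpha3, alpha6 and alpha7 chains bind laminins, and the alpha5 and alpha8 chains recognise the Arg-Gly-Asp (RGD) motif of fibronectin and related ligands, as does the alphaV chain with several beta chains. Talin and kindlin bind the beta tail and switch the receptor on, vinculin, alpha-actinin, filamin and tensin couple it to actin, and the kinases FAK (Ptk2) and Src signal from the site. In osteoblasts, adhesion to collagen and fibronectin is known to sustain survival and matrix-dependent differentiation.

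The libraries held 8044687 to 23301514 counts. Macf1 itself gave 154 to 205 CPM (the count over the library size, scaled with the TMM method of edgeR) in 6 of the 7 control libraries and 129 to 181 in the 7 knockdown-labelled libraries, with an averaged difference of 0.13 ± 0.24 (adjusted p = 0.724), so the knockdown is not seen in its RNA and the libraries are called by their labels. The library of control day 3 replicate 2 stood apart: it was the shallowest, had 17.7% of its counts on ribosomal protein genes against 5.26% to 10.4% elsewhere, and gave Macf1 at 55.2 CPM. Across genes, its log2 CPM had r = 0.928 with its partner, where the other 5 pairs had 0.993 to 0.994. Of the 34 tested members, 11 differed more than 2-fold between it and its partner, against 0 or 1 in each other pair. The share of all genes that did so is not given, so this is not shown to be particular to the members. Its difference from its partner fell with gene length (Spearman correlation -0.453, against -0.0409 to 0.15 in the other pairs). Results are therefore given with this library and without it. Markers of osteoblasts summed to 9169.2 to 28555.2 CPM in every library, led by collagen I and Sparc. Of these 8 markers, Runx2 and Sp7 gave at least 31.5 CPM everywhere, but at day 0 Alpl was low, with 2.84 and 2.57 CPM for control against 0.217 and 0.209 CPM, and Bglap was at 0 in 1 library of each condition. At day 5, Alpl stood at 156 and 150 CPM in control against 45.3 and 41.2. Ibsp stood at 8393.8 and 7278.3 CPM against 397 and 350. Runx2, Sp7, Col1a1 and Sparc also lay below control that day. Bglap went the other way, at 1.23 and 1.25 CPM in control against 9.09 and 9.4 CPM. Col1a2 overlapped, at 7925.3 and 8568.3 CPM against 7844.6 and 8507.2 CPM. Whether these differences have a part in the members' values was not tested. Adipocyte markers summed to at most 0.359 CPM.

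Differences are log2 fold changes, knockdown-labelled libraries minus control, with the standard error (SE) of edgeR's quasi-likelihood fit over all 14 libraries. A gene is called where the p adjusted over all 13130 genes tested by Benjamini and Hochberg's method is under 0.05. The common dispersion, the fit's measure of spread between replicates over all genes, was 0.0474, and 0.0115 without control day 3 replicate 2. This spread is estimated over all groups together. Leaving that library out therefore also changes adjusted p in comparisons that do not use it. At day 0, for example, the difference of Itga1 was -3.59 with it and -3.60 without it. Itga2 and Itga4, the alpha2 and alpha4 chains, did not reach 10 counts in 2 libraries and were not tested, which left 34 members.

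Averaged over days 0, 3 and 5, 11 members were higher and 3 lower in the knockdown-labelled libraries, beside 15.0% of all tested genes called higher and 11.9% called lower. The higher ones were the alpha chains Itga5, Itga6 and Itga10, the beta chains Itgb3, Itgb7 and Itgb8, Itgbl1, the actin linkers Tns1 and Flna, and Ilk and Parva of the integrin-linked kinase complex. The lower ones were Itga1, Itga8 and Itga11. The median difference over the tested members was 0.21, and over all tested genes -0.00. Without control day 3 replicate 2, 15 members were higher and 9 lower, all 14 of the first calls among them, beside 24.9% and 22.1% of all genes. In the plot of averaged differences, both fits can be read side by side.

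**Figure D1:**
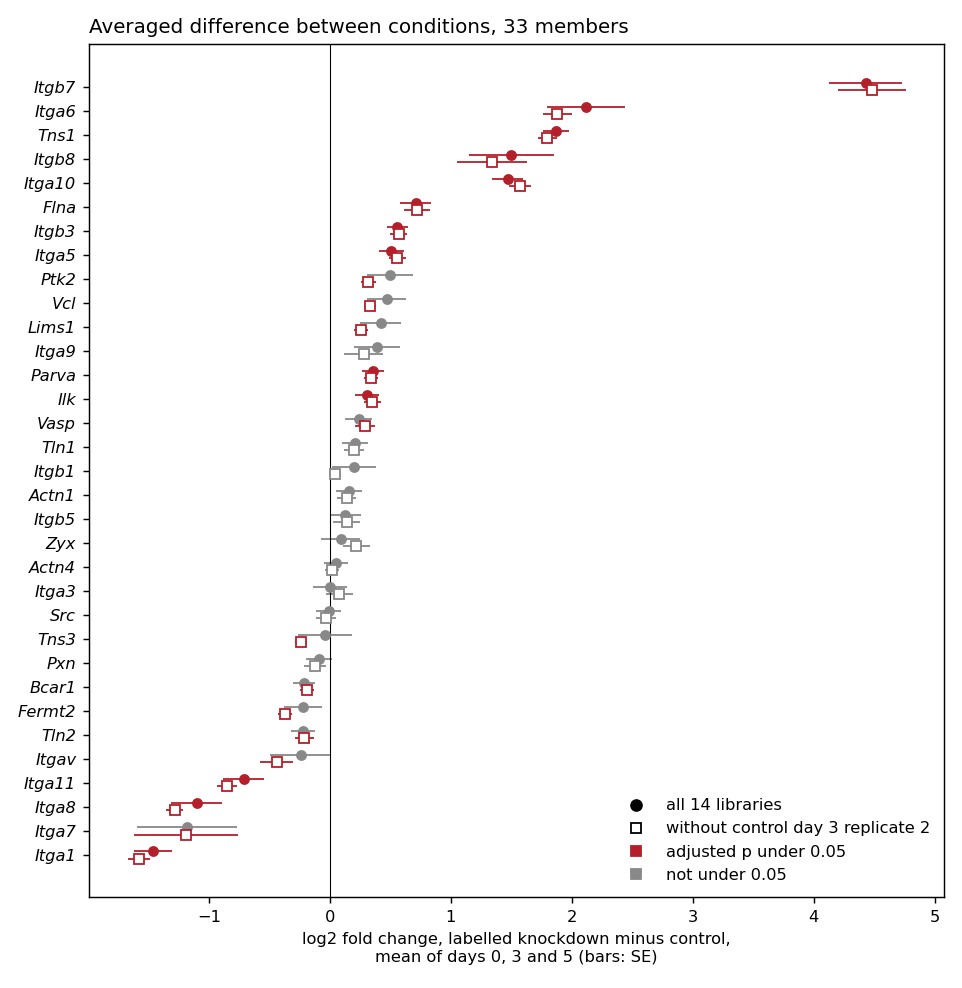
Log2 fold change of 33 tested members, knockdown-labelled libraries minus control, averaged over days 0, 3 and 5 (x axis; bars are SE), from all 14 libraries (filled circles) and without control day 3 replicate 2 (open squares); red marks an adjusted p under 0.05. Itgb7 lies farthest to the right at 4.43 and Itga1 farthest to the left at -1.46; Itgbl1, at or near 0 counts in control libraries, is left out of the plot.

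The collagen receptors changed in composition. Itga1 (chr13:114953096-115101964, minus strand, GRCm38), the alpha1 chain, which prefers basement membrane collagen, read 41.1 and 43.2 CPM, then 31.6 and 16.7, then 12.2 and 12.5 in the control pairs of days 0, 3 and 5, and 9.89 in control on day 10. In the knockdown-labelled libraries it gave 3.04 and 3.96 CPM, then 14 and 14.6, then 11.7 and 13.1 on the replicated days, and 9.47 on day 10. The conditions were thus far apart at day 0 and overlapped at day 5. The averaged difference was -1.46 ± 0.16 (adjusted p = 0.000162, edgeR), made up of -3.59 ± 0.30 at day 0 (adjusted p = 9.19e-05) and 0.00 ± 0.27 at day 5 (adjusted p = 0.998).

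Itga11 (chr9:62677826-62783982, plus strand), the alpha11 chain of fibroblast and osteoblast receptors for fibrillar collagen, read 98.4 and 121 CPM, then 59.4 and 28.8, then 77.5 and 88.8 in the control pairs of days 0, 3 and 5, and 86 in control on day 10. The knockdown-labelled values of Itga11 were 38.2 and 40.6 CPM, 39.6 and 43.6, 51 and 62.6, and 58.3 on the same days. They lay below both control libraries at days 0 and 5 and between them at day 3. On average Itga11 was lower by a log2 value of -0.71 ± 0.17 (adjusted p = 0.0124); limma on log2(RPKM + 1) did not call it (-0.54, adjusted p = 0.0678).

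Itga10 (chr3:96645584-96664519, plus strand), the alpha10 chain known from cartilage, went the other way. Control libraries gave 2.09 and 2.85 CPM, then 11.5 and 16.7, then 23.1 and 23 on the replicated days, and 7.95 on day 10. Those labelled knockdown stood at 23.3 and 21.6 CPM already at day 0, then at 25.9 and 23.6, 30.1 and 30.8, and 31.4. The averaged difference was 1.47 ± 0.13 (adjusted p = 3.2e-05), and at day 0 alone 3.19 ± 0.24 (adjusted p = 4.6e-05). The predicted gene Gm42957 shares 33.5% of the exon bases of Itga10 on the same strand, so the counting could split reads between them. The fourth collagen-binding chain, Itga2, stayed at 0 to 0.671 CPM in all 14 libraries.

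Of the laminin-binding chains, Itga6 was called higher on average. Itga6 (chr2:71745616-71858416, plus strand), the alpha6 chain of laminin receptors, read 10.5 and 16.1 CPM, then 6.75 and 0.588, then 8.65 and 10.4 in the control pairs of days 0, 3 and 5, and 12.5 in control on day 10. In their knockdown-labelled counterparts Itga6 read 55.7 and 59.5 CPM, 26.7 and 29, 27.4 and 26, and 28.1, above every control library of the same day. The averaged difference was 2.12 ± 0.32 (adjusted p = 0.00113). The lowest value, 4 counts, belongs to control day 3 replicate 2; the averaged difference was 1.88 without that library and 3.05 without its partner, control day 3 replicate 1. Itga3, the alpha3 chain, had control levels of 20.8 to 50.9 CPM and knockdown-labelled levels of 26.6 to 45.3 CPM at days 0 to 5, with an averaged difference of 0.00 ± 0.14 (adjusted p = 0.996). Itga7, a muscle laminin receptor chain, stayed at or under 2.03 CPM throughout. Its averaged difference was -1.18 ± 0.41 and not called (adjusted p = 0.0567). At day 5 it was -2.46 ± 0.66 (adjusted p = 0.0503), from 27 and 26 counts in control against 7 and 5. With an offset for gene length, Itga7 was called lower on average (-1.22, adjusted p = 0.0435) and at day 5 (-2.47, adjusted p = 0.0374). Without control day 3 replicate 2 its averaged difference was -1.19.

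Among the chains that bind RGD ligands, Itga5 was higher and Itga8 lower. Itga5 (chr15:103344286-103366763, minus strand), the fibronectin receptor chain, read 44.6 and 47.8 CPM, then 29.3 and 36.6, then 33.4 and 37.1 in the control pairs of days 0, 3 and 5, and 33.6 in control on day 10. The knockdown-labelled values of Itga5 were 63.8 and 60.2 CPM, 49.7 and 57.8, 44.1 and 48.6, and 56.2, above the control libraries at each day. The averaged difference was 0.51 ± 0.10 (adjusted p = 0.00476). Itga8 (chr2:12106632-12301922, minus strand), the nephronectin receptor chain, read 33.6 and 37.6 CPM, then 46.2 and 16, then 19.3 and 19.8 in the control pairs of days 0, 3 and 5, and 29.8 in control on day 10. In their knockdown-labelled counterparts Itga8 read 6.68 and 6.33 CPM, 15.9 and 16.4, 21.1 and 21.6, and 12.8. They lay below control at day 0 and slightly above it at day 5, and the averaged difference of -1.10 ± 0.21 (adjusted p = 0.00474) covers -2.45 ± 0.39 at day 0 (adjusted p = 0.00409) and 0.13 ± 0.36 at day 5 (adjusted p = 0.9). Itgav, the alphaV chain shared by the vitronectin receptors, ranged from 95.9 to 440 CPM in control and from 187 to 272 CPM in the knockdown-labelled libraries, and its averaged difference of -0.24 ± 0.25 was not called (adjusted p = 0.513), though it was without control day 3 replicate 2 (-0.44, adjusted p = 0.0288).

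Itga9 (chr9:118606690-118901003, plus strand), the alpha9 chain, which binds tenascin and osteopontin, changed order between the conditions. Control libraries gave 4.68 and 8.28 CPM, then 7.14 and 3.82, then 3.35 and 3.58 on the replicated days, and 6.56 on day 10. The knockdown-labelled values of Itga9 were 3.1 and 3.06 CPM, 8.44 and 10.3, 9.59 and 10.2, and 9.76, below control at day 0 and above it on the later days. The average over days was 0.39 ± 0.19 and not called (adjusted p = 0.165), while day 5 alone was called at 1.51 ± 0.33 (adjusted p = 0.0222), a call lost without any of the 4 libraries of day 5 (1.45 to 1.56, adjusted p from 0.101 to 0.184). Itga4, the alpha4 chain of blood cells, gave 0 to 0.882 CPM, and both libraries of day 10 had 0 counts.

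**Figure D2:**
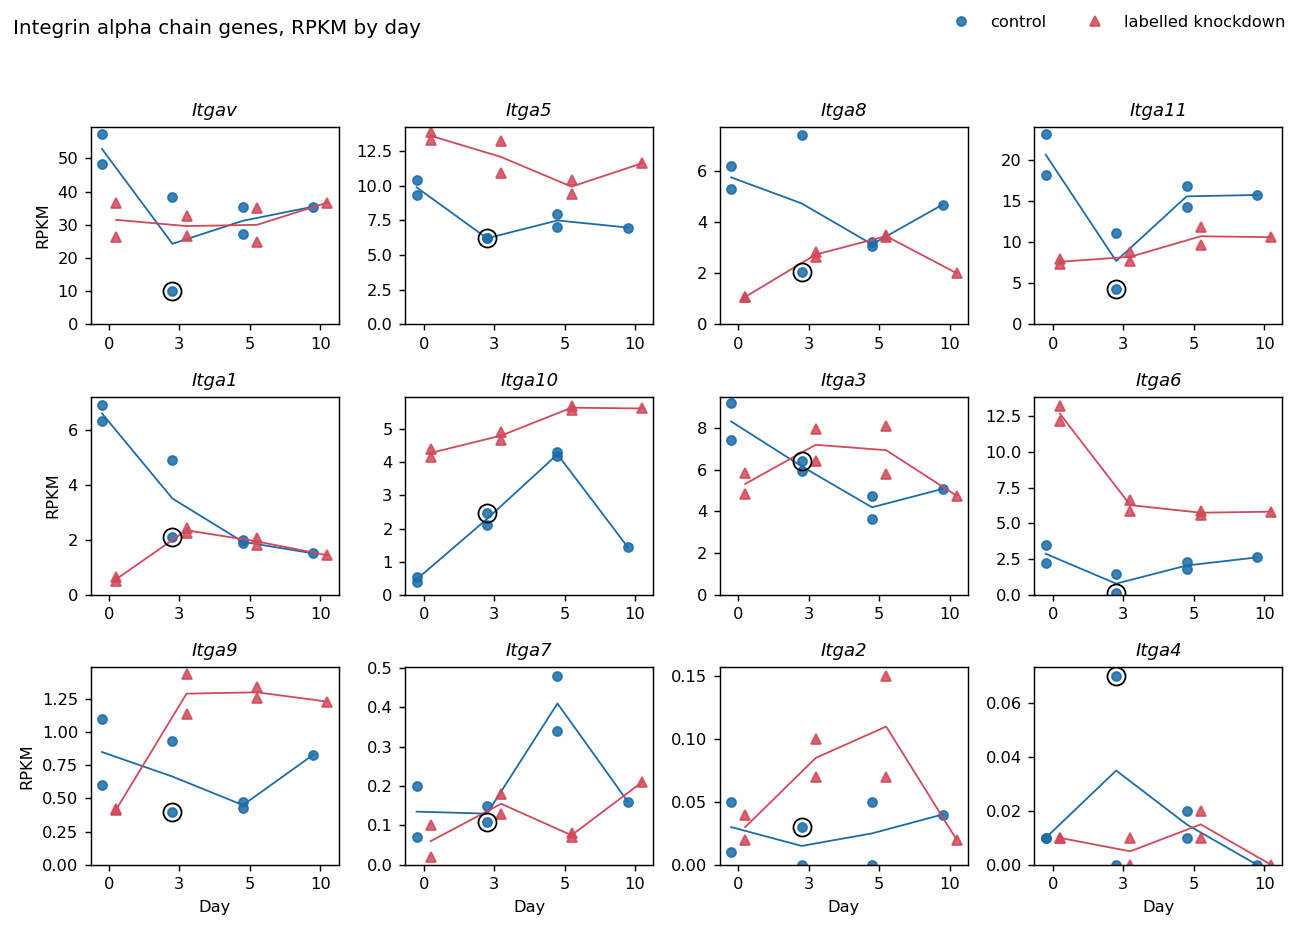
Deposited RPKM (y axis, own scale in each panel) of the 12 alpha chain genes by day (x axis, evenly spaced) in control libraries (blue circles) and knockdown-labelled libraries (red triangles); lines join group means, and the open black ring marks control day 3 replicate 2. Itga1 and Itga8 start high in control and low in the knockdown-labelled libraries and meet at day 5, Itga10 starts low in control and stays below the knockdown-labelled libraries at every day, and Itga6 stays apart at every day.

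The beta chain that most of these pair with was not called. Itgb1 (chr8:128685654-128733200, plus strand), the beta1 chain, read 899 and 874 CPM, then 739 and 318, then 807 and 802 in the control pairs of days 0, 3 and 5, and 780 in control on day 10. In their knockdown-labelled counterparts Itgb1 read 845 and 835 CPM, 824 and 814, 816 and 849, and 839. Apart from the value of 318 CPM in control day 3 replicate 2, all 13 values lay between 739 and 899 CPM. The averaged difference was 0.20 ± 0.18 (adjusted p = 0.442); it was 0.04 (adjusted p = 0.599) without that library, -0.01 (adjusted p = 0.884) with day 3 left out, and 0.45 and called (adjusted p = 3.59e-05) without control day 3 replicate 1. Itgb5, the beta5 chain of a vitronectin receptor, ranged from 183 to 342 CPM in control and 209 to 414 CPM in the knockdown-labelled libraries up to day 5 (averaged difference 0.13 ± 0.13, adjusted p = 0.491).

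Itgb3, Itgb7 and Itgb8, the scarcer beta chains, were higher on average in the knockdown-labelled libraries. Itgb3 (chr11:104608000-104670476, plus strand), the beta3 chain of the osteopontin and vitronectin receptor, read 19.6 and 20.5 CPM, then 14.9 and 15.4, then 31.2 and 31.9 in the control pairs of days 0, 3 and 5, and 62.3 in control on day 10. The knockdown-labelled values of Itgb3 were 42.1 and 48.7 CPM, 23.3 and 24.4, 29.2 and 28, and 48: above control at days 0 and 3, below it at days 5 and 10. Its averaged difference was 0.56 ± 0.09 (adjusted p = 0.0014). Itgb8 (chr12:119158022-119238802, minus strand), the beta8 chain, which with alphaV binds latent TGF-beta, read 1.2 and 0.209 CPM, then 1.99 and 0.588, then 1.73 and 1.71 in the control pairs of days 0, 3 and 5, and 1.59 in control on day 10. In their knockdown-labelled counterparts Itgb8 read 3.75 and 3.62 CPM, 3.99 and 2.4, 3.95 and 2.82, and 3.37. All were above every control library, yet these are low counts: the averaged difference of 1.50 ± 0.35 (adjusted p = 0.012) was 1.26 without control day 0 replicate 2, which had 3 counts, and 2.08 without its partner.

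Itgb7 (chr15:102215995-102231944, minus strand), the beta7 chain best known from gut-homing lymphocytes, was close to absent in control, with 0.506 and 0.626 CPM, then 0.45 and 0.588, then 0 and 0.234 on the replicated days, and 0.615 on day 10. The knockdown-labelled values of Itgb7 were 18 and 20.3 CPM, then 3.03 and 4.1, then 4.21 and 4.9 on the replicated days, and 6.22 on day 10. Summed over the replicates, the ratio at day 0 was 33.8 (95% exact interval 20.9 to 58.3, from 623 and 17 counts), at day 3 it was 7.07 (3.81 to 14.6), and at day 5 it was 45.9 (15.4 to 225, with 3 control counts); the intervals cover counting error only. The averaged difference was 4.43 ± 0.30 (adjusted p = 6.32e-06) and became 5.70 when control day 5 replicate 2 was left out. The alpha4 chain, with which beta7 pairs in lymphocytes, was near 0 as given above. Itgae, the other alpha chain known to pair with beta7, gave at most 0.93 CPM. The blood cell markers Ptprc and Adgre1 gave at most 0.294 and 0.0671 CPM. Of the same marker list, Lyz2 gave 1.56 to 4.26 CPM in control and 3.27 to 9.6 CPM in the knockdown-labelled libraries. Itgb2 reached 2.46 CPM in control and 3.6 CPM in the knockdown-labelled libraries, both on day 10. Whether blood cells have a part in the values of Itgb7 was not tested.

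Itgbl1 (chr14:123659971-123975618, plus strand) encodes a secreted protein with integrin EGF-like repeats and no membrane anchor, known from cartilage and bone. In control libraries it had 0 counts in both libraries of day 0 and in 1 of day 3, where the other gave 0.0643 CPM, then 1.73 and 1.32 CPM at day 5 and 23.9 at day 10. In their knockdown-labelled counterparts Itgbl1 read 5.32 and 5.63 CPM, then 6.72 and 7.49, then 16.8 and 13.9 on the replicated days, and 75.3 on day 10. At day 0, 179 counts stood against 0, at least 55-fold higher when the control group is set at the floor of 3 counts. At day 5 the difference was 3.31 ± 0.26 (adjusted p = 0.000161). It rose from day 0 to day 5 in both conditions, and control reached at day 10 a level above that of the knockdown-labelled libraries at day 5. The averaged comparison called it (adjusted p = 6.91e-07), with a fitted size that depends on how 0 counts are treated.

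**Figure D3:**
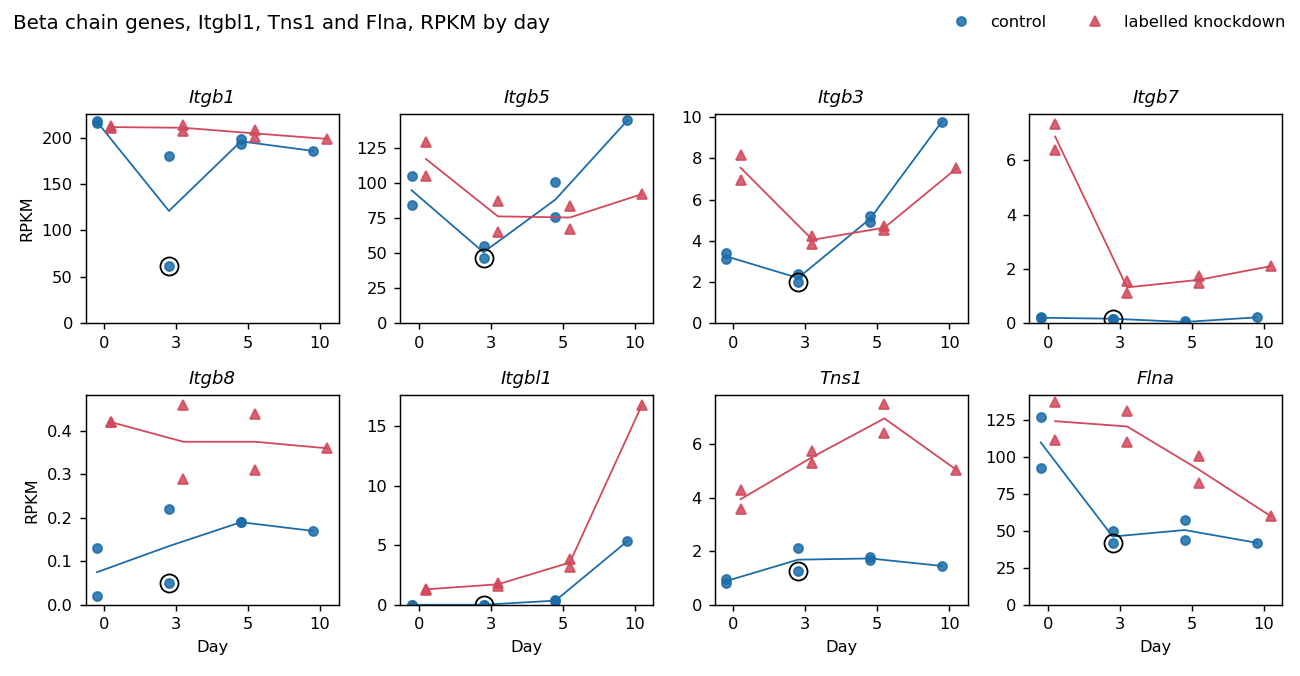
Deposited RPKM (y axis, own scale in each panel) of the 5 beta chain genes, Itgbl1, Tns1 and Flna by day (x axis, evenly spaced); symbols as for the alpha chains, with control day 3 replicate 2 ringed. Itgb1 is level outside the ringed library, Itgb7 peaks at 6.4 and 7.36 RPKM in the knockdown-labelled libraries at day 0, and Itgbl1 climbs in both conditions up to day 10.

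RPKM divides by gene length, so it allows the chains to be ranked. In control cells at day 0 the order of the alpha chains was Itgav (48.4 and 57.2 RPKM), Itga11 (18.2 and 23.1), Itga5 (9.34 and 10.4), Itga3 (7.41 and 9.23), Itga1 (6.3 and 6.88), Itga8 (5.3 and 6.17), Itga6 (2.21 and 3.51), Itga9 (0.6 and 1.1), Itga10 (0.38 and 0.54) and Itga7 (0.07 and 0.2). None of these neighbours overlapped over the 2 libraries; Itga2 and Itga4, at the bottom, did. In the knockdown-labelled libraries at day 0 the order below Itgav was Itga5, Itga6, Itga11, Itga3, Itga10, Itga8, Itga1 and Itga9. Itga1 thus went from the fifth place to the eighth, and Itga6 from the seventh to the third. Of the beta chains, Itgb1 led in control at day 0 with 216 and 218 RPKM, followed by Itgb5 with 84.4 and 105, Itgb3 with 3.11 and 3.38, Itgb7 with 0.17 and 0.22 and Itgb8 with 0.02 and 0.13. In the knockdown-labelled libraries at day 0, Itgb7 (6.4 and 7.36 RPKM) overlapped Itgb3 (6.93 and 8.16 RPKM).

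Summed by ligand, the collagen-binding chains gave 24.9 and 30.6 RPKM in control at day 0 and 12.2 and 12.7 in the knockdown-labelled libraries, while the laminin-binding chains gave 9.69 and 12.9 against 17.1 and 19.1. Collagen-binding chains were 23.2% and 27.9% of all alpha chain RPKM in control at day 0 and 15.1% and 17.5% in the knockdown-labelled libraries. Laminin-binding chains were 9.06% and 11.8% against 21% and 26.1%. The higher laminin-binding sum at day 0 came from Itga6 alone (2.21 and 3.51 against 12.15 and 13.21 RPKM). Itga3 went the other way that day (7.41 and 9.23 against 4.82 and 5.82 RPKM), and Itga7 stayed at or under 0.2 RPKM. At day 5 the collagen-binding shares were 28.4% and 33.3% against 21.9% and 26.8%, and the laminin-binding shares 8.06% and 10.8% against 15.1% and 18.7%. Neither pair of groups overlapped on these days. At day 3 the collagen-binding shares were 23.1% and 25.9% against 20% and 21.4%, while the laminin-binding shares, 9.55% and 19.3% against 16.7% and 19.8%, overlapped through control day 3 replicate 2. The chains that bind RGD ligands held 53.5% to 67.1% of control RPKM and 52.7% to 63.5% in the knockdown-labelled libraries. These sums were compared by their ranges and not tested.

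**Figure D4:**
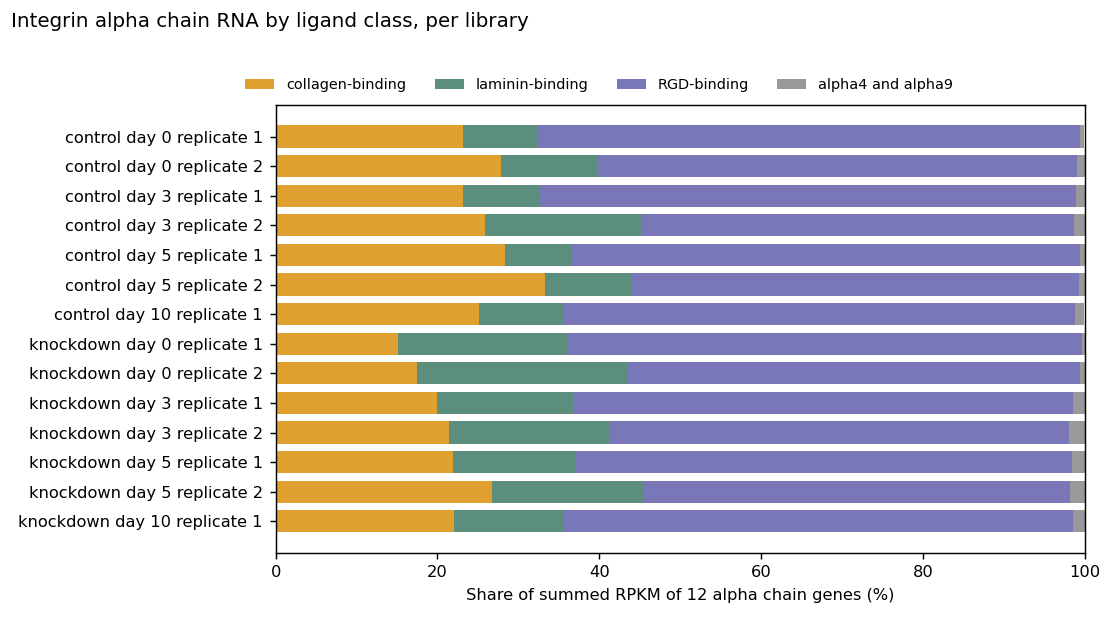
Share of the summed RPKM of 12 integrin alpha chain genes (x axis, percent) held by each ligand class, in each of the 14 libraries (rows). The laminin-binding share is 21% and 26.1% in the knockdown-labelled libraries at day 0 and 9.06% and 11.8% in control at day 0. Itga6 alone holds 14.9% and 18.1% against 2.07% and 3.2% in control.

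Of the 11 proteins that link integrins to actin, Tns1 and Flna were higher on average and the others were not called. Tns1 (chr1:73910231-74124449, minus strand), tensin 1, which binds beta tails in mature adhesions, read 9.16 and 10.2 CPM, then 23.2 and 17.2, then 18.5 and 19.5 in the control pairs of days 0, 3 and 5, and 16.2 in control on day 10. The knockdown-labelled values of Tns1 were 38.5 and 45.2 CPM, 56.4 and 58.3, 70 and 81.4, and 56.9. Every one of them was above every control library, and the averaged difference was 1.87 ± 0.11 (adjusted p = 2.84e-06). Flna (chrX:74223461-74249820, minus strand), the actin crosslinker filamin A, read 855 and 1134.3 CPM, then 459 and 482, then 409 and 513 in the control pairs of days 0, 3 and 5, and 392 in control on day 10. In their knockdown-labelled counterparts Flna read 995 and 1201.3 CPM, 973 and 1112.4, 747 and 909, and 563: overlapping at day 0 and above control afterwards. Its averaged difference was 0.71 ± 0.13 (adjusted p = 0.00278).

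The other linkers stayed within a narrower band. Their medians over days 0 to 5 ran from 43.3 CPM (Tln2, a talin) to 406 CPM (Actn4, an alpha-actinin) in control, and from 42.5 to 387 CPM for the same genes in the knockdown-labelled libraries. Averaged differences of these 9 genes lay between -0.22 (Fermt2, kindlin-2, and Tln2) and 0.47 (Vcl, vinculin). Vcl missed the call at an adjusted p of 0.0506, and 25.5% of its exon bases lie opposite Ap3m1. Without control day 3 replicate 2, Vcl (0.33, adjusted p = 0.000326) and Vasp (0.29, adjusted p = 0.00948) were called higher, and Fermt2 (-0.37, adjusted p = 0.000274), Tns3 (-0.24, adjusted p = 0.00249) and Tln2 (-0.21, adjusted p = 0.0446) lower.

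Ilk, Lims1 and Parva form the complex of integrin-linked kinase, PINCH and parvin that anchors beta tails to actin, and Ilk and Parva were higher by a small amount. Ilk (chr7:105736592-105742925, plus strand) read 124 and 118 CPM, then 86.9 and 102, then 97.6 and 113 in the control pairs of days 0, 3 and 5, and 80.4 in control on day 10, against 142 and 145, 118 and 143, 122 and 121, and 101 in the knockdown-labelled libraries. Parva (chr7:112427505-112591692, plus strand) gave 293 and 332 CPM, 156 and 143, 154 and 178, and 167 in control on the same days, against 296 and 310, 223 and 242, 233 and 233, and 204. For Ilk the groups were separate at each day, and for Parva from day 3 on. The averaged differences were 0.31 ± 0.10 for Ilk (adjusted p = 0.0424) and 0.36 ± 0.09 for Parva (adjusted p = 0.0176). Both are close to the threshold. With no low-count filter neither was called (adjusted p = 0.125 for Ilk and 0.052 for Parva). The call of Ilk was lost with size factors by the median of ratios (0.29, adjusted p = 0.0544) and without any 1 of the 10 libraries of the replicated days outside control day 3 (adjusted p from 0.0528 to 0.151), and that of Parva was lost without control day 0 replicate 1, control day 5 replicate 1, knockdown day 0 replicate 2, knockdown day 3 replicate 2 or either knockdown library of day 5 (adjusted p from 0.0503 to 0.0828). In addition, 76.7% of the exon bases of Ilk lie opposite Taf10, so without the counting's strand setting reads of these genes cannot be told apart. Lims1 (0.42 ± 0.17, adjusted p = 0.0981) was called without control day 3 replicate 2 (0.26, adjusted p = 0.0037).

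None of the 4 kinases and scaffolds was called by edgeR on average; 2 of the 4 had an unadjusted p under 0.05, and DESeq2 called 1. Ptk2, focal adhesion kinase, ranged from 28.5 to 86.7 CPM in control and from 93.9 to 109 CPM in the knockdown-labelled libraries, with an averaged difference of 0.50 ± 0.19 (adjusted p = 0.0842); without control day 3 replicate 2, which held the lowest value, it was 0.32 (adjusted p = 0.000688). Bcar1, the scaffold p130Cas, ranged from 35.3 to 53.3 CPM against 33.1 to 44.7 CPM and was called lower only without that library (-0.19, adjusted p = 0.028). Src (-0.01) and Pxn, paxillin (-0.09), differed by less than their SE of 0.10 and 0.11.

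Day by day, fewer members passed. Control day 3 replicate 2 is not compared at days 0 and 5, so leaving it out acts there through the shared fit. For fits with the replicate block or without another single library, here and over time below, the share of all genes called is not given. Their counts do not show whether members gained or lost more calls than other genes did. At day 0, 6 were higher and 3 lower, beside 4.41% and 2.68% of all genes: Itga6, Itga10, Itgb3, Itgb7, Itgbl1 and Tns1 higher, and Itga1, Itga8 and Itga11 lower. Of these, Itga6 lost its call without any 1 of the same 10 libraries (adjusted p from 0.0857 to 0.319), Itga11 without any of the 4 libraries of day 0 (adjusted p from 0.0537 to 0.133), and Itga8 without either knockdown library of day 0 (adjusted p of 0.0516 and 0.0547); the other 6 kept theirs in all 12 such fits. Leaving out control day 3 replicate 2, 10 were higher and 10 lower (15.7% and 12.8% of all genes). With the replicate number as a block, 5 members were lower at day 0, Itga3 (-0.68, adjusted p = 0.0171) and Tln2 (-0.64, adjusted p = 0.0186) joining, while Itgb8 joined the higher ones (2.46, adjusted p = 0.0283) and Itga6 was no longer called (2.11, adjusted p = 0.0622).

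At day 3, 9 members were higher (7.06% of all genes) and edgeR called 0 lower (5.52%), with 2 lower at an unadjusted p under 0.05 and 1 by DESeq2. The 9 were Itga5, Itga6, Itga10, Itgb3, Itgb7, Itgbl1, Tns1, Flna and Parva. This is the day of the library that stands apart: without it 13 were higher and 3 lower (11.8% and 9.09% of all genes), the same 9 among the higher ones, and Itga1 (-1.15), Itga8 (-1.52) and Itga11 (-0.52) lower. The value of Itga6 went from 2.75 to 2.04 without it and to 5.55 without its partner. Leaving out any 1 of the other 10 libraries took the calls of Itga5, Itga10, Itgb3 and Parva (adjusted p from 0.0522 to 0.188) and left 2 to 5 members higher. Those of Itga6 and Flna were lost without either knockdown library of day 3, and that of Itgb7 without knockdown day 3 replicate 2 (adjusted p = 0.0589). An offset for gene length ended the same 4 calls of Itga5, Itga10, Itgb3 and Parva. The replicate block added Actn1 to the higher ones (0.64, adjusted p = 0.0255). Fitted on the 4 libraries of day 3 alone, no member and no other gene was called, with 5 members higher at an unadjusted p under 0.05.

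At day 5, 5 members were higher, Itga9, Itgb7, Itgbl1, Tns1 and Flna (5.32% of all genes), and edgeR called 0 lower (2.47%), with 1 lower at an unadjusted p under 0.05 and 1 by DESeq2. Without control day 3 replicate 2 the counts were 13 and 3, beside 16.5% and 14.8%, all 5 of the first among the 13. The call of Flna (0.84 ± 0.22, adjusted p = 0.0447) was lost without any 1 of the 10 libraries outside control day 3 (adjusted p from 0.0601 to 0.326). With the replicate block Itga3 was also higher at day 5 (0.71, adjusted p = 0.0145). For Itgb7 the size at day 5, 5.41, rests on 3 control counts and became 4.22 and 9.22 without control day 5 replicates 1 and 2.

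At day 10, with 1 library per condition and no test, 5 of the 34 members were more than 2-fold higher and 1 more than 2-fold lower in the knockdown-labelled library on the log2(CPM + 0.5) scale, beside 6.05% and 2.81% of all tested genes. The ratios, with 95% exact intervals for counting error, were 10.1 (5.55 to 20.2) for Itgb7, 3.96 (3.3 to 4.76) for Itga10, 3.5 (3.08 to 3.99) for Tns1, 3.15 (2.83 to 3.51) for Itgbl1, 2.24 (1.92 to 2.63) for Itga6 and 0.43 (0.367 to 0.503) for Itga8. Of the members called on average, Itga1 had a ratio of 0.957 whose interval includes 1 (0.772 to 1.19), and Itgb3, higher on average, had a ratio of 0.771 (0.705 to 0.843). Itgb5, which was not called earlier, had a ratio of 0.64 (0.619 to 0.662).

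From day 0 to day 5 in control cells, 9 of the 34 members fell and 4 rose, beside 3.82% and 4.32% of all genes. The median change was -0.51 over the members and 0.00 over all genes. Those that fell were Itga1 (-1.77 ± 0.27), Flna (-1.11 ± 0.22), Itga3 (-0.98 ± 0.24), Parva, Pxn, Actn1, Tln1, Tln2 and Bcar1, which cover receptors, linkers and scaffolds. Those that rose were Itga10 (3.22 ± 0.25), Itgb3 (0.65 ± 0.15), Tns1 (0.97 ± 0.20) and Itgbl1, which reached at least 15.7-fold above the floor of 3 counts at day 0. When control day 3 replicate 2 was left out, 19 fell and 5 rose (14.5% and 16.9% of all genes). With the replicate block, Vasp (-0.55, adjusted p = 0.044) and Zyx (-1.02, adjusted p = 0.00553) also fell. The calls of this comparison are sensitive to single libraries: leaving out 1 of the 10 others left 0 to 5 members lower, with 10 at an unadjusted p under 0.05 where the count was 0, without control day 5 replicate 1; the calls of Itga10 and Itgbl1 held in all 12 such fits, and that of Itga1 in 11 (adjusted p = 0.0584 without control day 5 replicate 1).

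In the knockdown-labelled libraries, 4 members rose and 2 fell over the same days, beside 1.45% and 0.548% of all genes. Itga1 (1.82 ± 0.29, adjusted p = 0.0138), Itga9 (1.68 ± 0.34, adjusted p = 0.0359), Itgbl1 (1.49 ± 0.23, adjusted p = 0.0145) and Tns1 (0.85 ± 0.19, adjusted p = 0.0497) rose, and Itgb7 (-2.07 ± 0.36, adjusted p = 0.0176) and Pxn (-0.93 ± 0.19, adjusted p = 0.0418) fell. Itga1 thus rose here and fell in control. Itgb3 also fell with the replicate block (-0.66, adjusted p = 0.0404). With control day 3 replicate 2 left out, the counts were 7 and 8 (7.94% and 7.54% of all genes). The members' calls of the main fit were lost in each fit without 1 of the 4 knockdown-labelled libraries of days 0 and 5. The share of all genes called in those fits is not given, so this loss is not shown to be particular to the members.

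The difference between these courses was tested directly. The change from day 0 to day 5 was more positive in the knockdown-labelled libraries for Itga1 (3.59 ± 0.40, adjusted p = 0.00207), Itga8 (2.58 ± 0.53, adjusted p = 0.0493) and Itga9 (2.58 ± 0.48, adjusted p = 0.029), and more negative for Itga10 (-2.79 ± 0.32, adjusted p = 0.0022), Itgb3 (-1.32 ± 0.22, adjusted p = 0.0161) and Itgbl1 (adjusted p = 0.0147). The direction for Itgbl1 depends on the scale: on log2(RPKM + 1) the difference was 0.55 and not called (adjusted p = 0.273), and mean RPKM went from 0 to 0.35 in control and from 1.29 to 3.54 in the knockdown-labelled libraries. By edgeR that is 3 in each direction, beside 0.800% and 0.564% of all genes; 5 of the 6 encode integrin chains. Without control day 3 replicate 2 there were 8 and 3 (5.03% and 4.97% of all genes). Only Itga1 and Itga10 kept their calls in all 12 fits that left out a library; the calls of Itga8, Itga9, Itgb3 and Itgbl1 were lost in 10, 9, 8 and 6 of them, and with the replicate block Itga8 was not called (2.59, adjusted p = 0.0734) and Itga3 was (1.39, adjusted p = 0.0108).

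**Figure D5:**
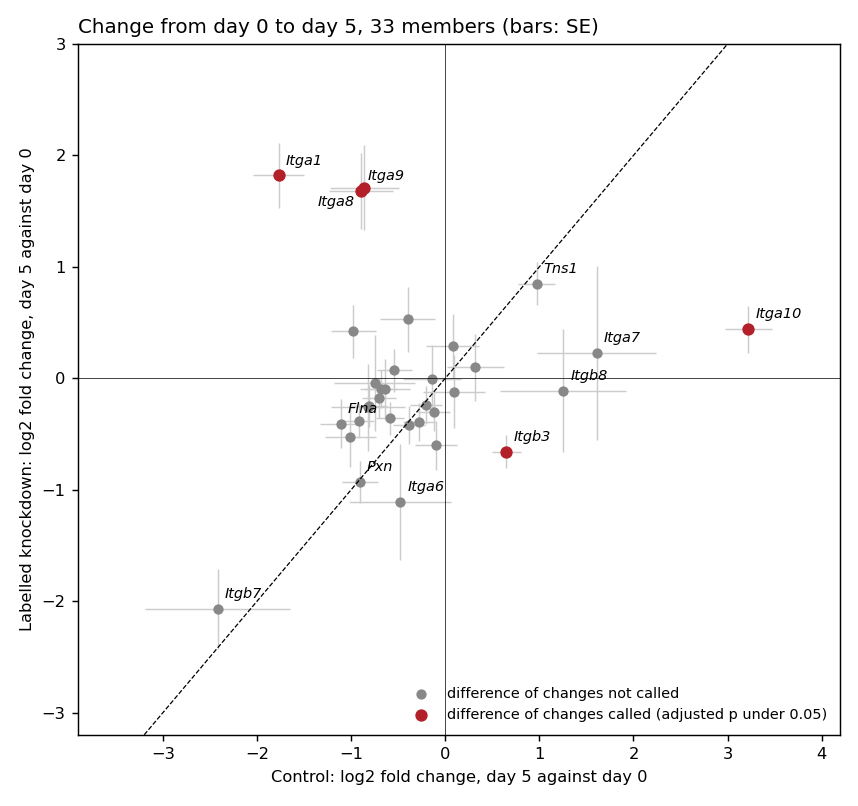
Log2 fold change from day 0 to day 5 of 33 tested members in control (x axis) and in the knockdown-labelled libraries (y axis), with SE bars; the dashed line marks equal change, and red marks a called difference between the changes. Itga1, Itga8 and Itga9 lie above the line, Itga10 and Itgb3 below it, and Tns1, Itgb7 and Pxn near it.

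The proteins around the members were read from lists of other genes. Of 48 other cytoplasmic proteins of focal adhesions, 44 were tested, and 11 (25%) were higher and 6 (13.6%) lower on average, beside 15.0% and 11.9% of all genes. When control day 3 replicate 2 was left out, 16 (36.4%) and 13 (29.5%) were called, beside 24.9% and 22.1%. Tns2, another tensin (1.41 ± 0.12, adjusted p = 2.96e-05), Parvb, beta-parvin (1.32 ± 0.14, adjusted p = 0.000153), and Sorbs3, vinexin (0.96 ± 0.13, adjusted p = 0.000639), were higher, and the LIM protein Pdlim1 was lower (-1.27 ± 0.11, adjusted p = 3.58e-05). The median over the 44 was 0.11, against -0.00 for all genes.

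Of 30 matrix ligands, 28 were tested, and 6 (21.4%) were higher and 11 (39.3%) lower, beside 15.0% and 11.9% of all genes, with a median of -0.09. Leaving out that library gave 7 (25%) and 14 (50%), beside 24.9% and 22.1%. Ibsp, bone sialoprotein with an RGD motif (-3.57 ± 0.18, adjusted p = 1.21e-06), the basement membrane linker Nid1 (-3.33 ± 0.20, adjusted p = 3.47e-06), the thrombospondin Thbs1 (-1.77 ± 0.30, adjusted p = 0.00213) and Tnc, tenascin-C, a ligand of alpha9 (-1.68 ± 0.14, adjusted p = 2.64e-05), were lower. Col4a1 and Col4a2, the chains of basement membrane collagen that Itga1 binds, were among the 6 higher ones (1.23 and 1.04, adjusted p = 0.000895 and 0.000944). So was Spp1, osteopontin, which alpha9 also binds (0.60 ± 0.14, adjusted p = 0.012, edgeR). Of the ligands of other chains described above, Fn1, fibronectin, was higher (0.82 ± 0.22, adjusted p = 0.0222, edgeR). Npnt, nephronectin, was lower (-1.03 ± 0.10, adjusted p = 7.8e-05), with -3.05 at day 0 and 0.56 at day 5. The laminin chains Lamb1 (-0.67 ± 0.10, adjusted p = 0.000858) and Lama4 (-0.60 ± 0.13, adjusted p = 0.00808) were lower, and the other tested laminin chains were not called. All were chosen for mention after their values were seen. Spp1 differed by 1.10 at day 0, 1.44 at day 3 and -0.74 at day 5, the last not called (adjusted p = 0.103).

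Among 14 membrane partners of integrins, all tested, 7 (50%) were higher and 1 (7.14%) lower, beside 15.0% and 11.9% of all genes, with a median of 0.31. Leaving out that library gave 8 (57.1%) and 3 (21.4%), beside 24.9% and 22.1%. The 4 with the largest changes were Cav1, caveolin-1 (0.82 ± 0.26, adjusted p = 0.0402), the tetraspanin Cd82 (0.58 ± 0.10, adjusted p = 0.00289), Cd47 (0.55 ± 0.12, adjusted p = 0.008) and Slc3a2, the CD98 heavy chain (0.53 ± 0.11, adjusted p = 0.00559). The call of Cav1 was lost with the replicate block and without any 1 of the 10 libraries outside control day 3. Of 10 integrin genes outside the members, from blood cells and epithelia, 4 were tested, and Itgb4 was called (0.87 ± 0.24, adjusted p = 0.0236) at levels of 0.707 to 3.9 CPM.

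Over all 14 libraries, the summed markers of epithelial and of skeletal muscle cells had ranges that did not overlap between the conditions. The sums of blood cell, endothelial and chondrocyte markers overlapped, and none of these sums was tested. Of 6 epithelial markers 5 had a row, and they summed to 1.48 to 10.2 CPM in control and to 12.4 to 54.9 CPM in the knockdown-labelled libraries, led by Krt14 with up to 46.2 CPM, with Cdh1 at up to 8.07 CPM, and with Itgb6 and Krt5 at or under 0.379 CPM. Markers of macrophages and other blood cells, led by Lyz2, summed to 2.49 to 8.23 CPM in control against 4.62 to 13.9 CPM. Endothelial markers summed to 0.279 to 0.769 against 0.47 to 2.38 CPM. Chondrocyte markers summed to 48.2 to 266 against 79.2 to 201 CPM, nearly all of it Col2a1 (46.1 to 263 against 78.1 to 200 CPM). Acan, Col9a1, Comp and Matn3 gave at most 2.34 CPM each. Skeletal muscle markers, 5 of 6 with a row, summed to 1.4 to 5 CPM against 6.61 to 26 CPM, while Myog and Ckm were at most 0.21 and 0.141 CPM. Alpha6 and Itgb4 are also chains of epithelial laminin receptors, and whether cells with these markers have a part in the values of Itga6 or the other members was not tested; in bulk RNA, more cells of a type and more RNA per cell cannot be told apart.

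The start regions of members whose RNA differed were looked at for what they share. RefSeq windows of 300 bases, from 250 before to 50 after the annotated start (GRCm38.p6), were matched by symbol for 29 of the 36 members. They are shown for 4 members that were higher on average and for Vcl, whose window holds the CArG box of serum response factor. Capitals mark matches on either strand to the CArG box, to GGAATG (the core bound by TEAD factors) or to GGGCGG (a GC box).
Itgb7, chr15:102231936-102232035, minus strand: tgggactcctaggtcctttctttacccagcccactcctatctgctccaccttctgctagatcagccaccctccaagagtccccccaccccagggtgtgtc
Itgbl1, chr14:123660040-123660139, plus strand: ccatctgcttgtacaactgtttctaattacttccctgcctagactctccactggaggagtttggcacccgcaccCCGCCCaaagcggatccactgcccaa
Tns1, chr1:74124549-74124648, minus strand: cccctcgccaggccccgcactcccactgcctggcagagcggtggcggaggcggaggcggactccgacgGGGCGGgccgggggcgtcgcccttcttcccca
Itga10, chr3:96645484-96645583, plus strand: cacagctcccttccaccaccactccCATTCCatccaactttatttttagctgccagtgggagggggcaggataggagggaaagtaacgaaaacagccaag
Vcl, chr14:20929163-20929272, plus strand: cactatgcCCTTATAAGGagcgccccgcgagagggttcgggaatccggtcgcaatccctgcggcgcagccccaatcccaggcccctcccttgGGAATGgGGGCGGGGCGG
The first 4 lines are the 100 bases before the start, and the Vcl line runs from -235 to -126, counted from the start. Itgb7 and Itga10, with 0 and 1 CG pairs in 100 bases, have CG-poor starts, Itgbl1 has 3, and Tns1 has 12 at 79% G and C. No motif is common to all 4 of these members in the printed stretch. Itgbl1 and Tns1 each hold a GC box, Itga10 holds GGAATG, and Itgb7 holds none of the motifs.

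Over the whole windows, a CArG box was found in 2 of 29 members, Vcl and Fermt2, against 1.81% of 27025 genes. The core GGAATG was found in 5 of 29 (Itga10, Itgb1, Vcl, Actn4 and Flna), against 16.6%. The AP-1 motif TGANTCA was found in 4 of 29, Itga3, Itga9, Zyx and Actn4, against 8.97%, and GGGCGG in 20 of 29, against 38.2%. Neither Vcl nor Fermt2 was called on average over all 14 libraries. A match describes the letters of a window only.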

How the data were processed

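Polyadenylated RNA of 14 cultures was sequenced as directional libraries, per the labels' protocols. The deposited tables hold raw counts and, as the authors made them, RPKM (counts scaled by gene length and library size) for 24346 and 24340 genes. The submitters' processing notes name bcl2fastq, TopHat2, edgeR and build GRCm38; for the counting tool, the strand setting and the versions, nothing is given in the sources used here. For 7806 genes compared, the deposited RPKM equalled the count times 1 factor per gene and library to within 0.297%.

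Counts were tested with edgeR 4.0.16 (R 4.3.3) by quasi-likelihood on 8 group means, with TMM scaling, for 13130 genes with at least 10 counts in 2 libraries (11216 were left out; 6 residual degrees of freedom; threshold 0.05). The row without a symbol stayed out. CPM uses the same scaling. Alternatives used DESeq2 1.42.0 and limma 3.58.1 on log2(RPKM + 1) and log2(RPKM + 0.1). Where a fit leaves out a library, the partner left alone is assumed to vary like the other groups. The fits were tested on simulated data.

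Replicate numbers were checked for pairing: deviations of same-numbered control and knockdown libraries correlated at 0.37, 0.154 and 0.383 at days 0, 3 and 5. Between different days they correlated at 0.0178 to 0.409, with 0.358 between control day 0 and knockdown day 3. The numbers thus mark a difference shared by libraries of several days. This check does not show that same-numbered libraries of a day were paired. The main fit has no block, and the fit with the replicate number as a block is given beside each comparison whose calls it changed. The members and lists were chosen with earlier results of these data known. Values in every library are given for members called on average or differing in course, and for Itgb1. From each other list, up to 4 called genes of at least 5 CPM with the largest averaged change are named. Further matrix ligands were added after their values were seen. Positions are from GENCODE release 21 for mouse (24181 genes matched). Protein sequences were not used here. Depth was 8044687 to 23301514 counts per library, and exact 95% intervals cover counting error only.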

Additional observations from a re-analysis of the deposited data

Results flagged for a closer look

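For 6 members the change from day 0 to day 5 differed between the conditions by edgeR's test of that difference. The log2 difference, knockdown-labelled libraries minus control, was 3.59 for Itga1, 2.58 for Itga8, 2.58 for Itga9, -2.79 for Itga10 and -1.32 for Itgb3. For Itgbl1 the fitted value was -6.15, which depends on how the 0 counts of control day 0 are treated and has no fixed size; on log2(RPKM + 1) it was 0.55. Itga1, Itga8 and Itgb3 were apart at day 0 and close at day 5, Itga10 was farther apart at day 0 than at day 5, and Itga9 differed by -1.07 at day 0 (not called) and by 1.51 at day 5 (called). These differences share the libraries of days 0 and 5, and their cause was not tested.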

How the results depend on the processing

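DESeq2 and a minimum of 50 counts kept the direction and call of all 63 single-gene results examined. These are the members' calls of the main fit and the averaged value of Itgb1, so calls gained in another fit are not among them. Leaving out control day 3 replicate 2 reversed none of their directions. Leaving out any single replicated library outside control day 3 also reversed none, but lost calls each time. Size factors by the median of ratios lost 1 call, the replicate block 2, the offset for gene length 4, no filter 9, the groups compared alone 9, limma on log2(RPKM + 1) 15 and on log2(RPKM + 0.1) 20. The log2(RPKM + 0.1) scale moved the median of all genes to 0.11 on average and 0.27 at day 3, and log2(RPKM + 1) to 0.18 at day 3. Reversed signs were Itgbl1 in the difference of courses on log2(RPKM + 1) (0.55), Itgb1 on average with day 3 left out (-0.01), and Macf1 on average (-0.01 with the length offset, -0.05 with day 3 left out, -0.08 without control day 3 replicate 2; 0.51 and called without its partner, replicate 1). The cause was not tested.

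Counts of members moved as follows. The share of all genes called under the same fit is not given beside them. These counts therefore do not show whether the members moved more than other genes. Averaged, lower members were 5 with the length offset and 8 with day 3 left out. At day 0, lower members were 5 by DESeq2, with no filter, with the replicate block and with the length offset; the groups compared alone gave 10 higher and 10 lower. At day 3 the groups alone gave 0 higher (5 at an unadjusted p under 0.05; edgeR), and lower members were 1 by DESeq2 and with no filter and 2 with the length offset. At day 5, higher members were 3 by limma on log2(RPKM + 0.1) and 14 in the groups alone; lower members were 1 with size factors by the median of ratios, DESeq2, no filter, both limma scales and the length offset, and 3 in the groups alone. In control over time, higher members were 1 and 2 on log2(RPKM + 1) and log2(RPKM + 0.1), and lower ones 5 on the latter and 18 in the groups alone. In the knockdown-labelled libraries over time, both limma scales gave 1 higher and 1 lower, and the groups alone 7 and 7. For the difference of courses, both limma scales gave 1 higher, log2(RPKM + 0.1) 1 lower, and the groups alone 9 higher. With day 3 left out, other adhesion genes lower were 12, ligands lower 17 and membrane partners lower 3; the partners lower were also 3 by DESeq2, 2 with the replicate block and 0 with no filter (2 at an unadjusted p under 0.05; edgeR). CPM per kilobase of the derived length gave 12.1 for the summed collagen-binding chains at day 0 in the knockdown-labelled libraries, against 12.5 from RPKM.

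Leaving out 1 library at a time gave 9 to 18 members higher and 3 to 9 lower on average, 5 to 10 and 1 to 10 at day 0, 2 to 23 and 0 to 3 at day 3, 3 to 13 and 0 to 3 at day 5, 2 to 5 and 0 to 19 in control over time, 0 to 7 and 0 to 8 in the knockdown-labelled libraries over time, and 1 to 9 and 1 to 3 for the difference of courses. The same gave 7 to 23 and 4 to 13 other adhesion genes, 3 to 9 and 10 to 14 ligands, and 4 to 8 and 1 to 4 membrane partners. The highest counts came without either library of control day 3. The share of all genes called in the same fits is not given beside these ranges. They too do not show whether the listed genes moved more than other genes. Depth limits Itgb7, Itgb8 and Itgbl1, with 0 to 31 counts in control libraries of days 0 to 5.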
